A study of Homo sapiens with 12 samples.

Results

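This account is about what BMP2 changed in SK-OV-3 cells that were also given DM. It compares the 3 arrays of cells that received both reagents (written BMP2+DM) with the 3 arrays of cells that received DM alone, which are 6 of the 12 arrays of the series. The SK-OV-3 line is a long-established model of human ovarian cancer. Recombinant BMP2 was given at 100 ng/ml and DM at 5 µM, and every culture was collected after 24 h. DM is a compound that the labels name by these letters alone, and it was present in both groups compared. The other 6 arrays come from 3 cultures with PBS, the saline control, and 3 with BMP2 alone at the same dose. They are used here to set the response under DM beside the response without it. All arrays with these labels were used, and the labels call each a biological replicate. The values are MAS5 signals, that is, linear intensities, 1 for each probe set of an array.

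BMP2 is a secreted ligand that brings together type I and type II receptor kinases at the cell surface. The activated receptors phosphorylate SMAD1, SMAD5 and SMAD9, which enter the nucleus with SMAD4 and bind near their target genes. Best known among those targets are the ID genes, whose helix-loop-helix proteins lack a DNA-binding part and hold basic helix-loop-helix transcription factors away from DNA. SMAD6 and SMAD7 are targets that in turn dampen the pathway. Epithelial ovarian cancer cells carry BMP receptors and respond to the ligand, and ID proteins are widely used as a readout of that response.

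The 6 arrays had median signals between 89.2 and 99.4, and each array's log2 values had a mean correlation of 0.949 to 0.956 with the other arrays of its group. ERBB2, the receptor gene amplified in this line, had signals of 11980, 10770 and 11759 with DM and of 12801, 13217 and 12556 with BMP2+DM, so it was bright in every culture. Most marker genes of other cell types lay below the filter signal of 69.8. Those above it were 1 of 8 endothelial genes (PECAM1), 2 of 10 fibroblast genes (COL1A1 and DCN), 1 of 7 leukocyte genes (ITGAM) and 4 of 6 mesothelial genes (MSLN, CALB2, LRRN4 and PDPN), and 0 of these 8 were called by limma, with 1 at an unadjusted p under 0.05. The summed signal of the fibroblast list ran from 531.3 to 936.8 with DM and from 762.6 to 1194 with BMP2+DM, and that of the mesothelial list from 1378 to 1892 and from 1455 to 1747. These sums overlapped between the groups. In RNA from whole cultures, fewer cells of a kind and less RNA per cell cannot be told apart.

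Few genes were called when BMP2 was added in the presence of DM, and the called genes with the largest changes were ID genes. ID4 rose 7.59-fold, ID3 6.01-fold and ID1 4.74-fold. MT1H, which encodes a metal-binding metallothionein, rose 1.63-fold, and APLP2, which encodes a membrane protein related to the amyloid precursor protein, rose 1.45-fold. RESF1, which encodes a nuclear factor that takes part in silencing retroelements, was the single gene that fell, and was 1.55-fold lower. These were the 6 genes of 12674 tested (0.0473%) at an adjusted p under 0.05 in limma, 5 of them higher (0.0395%) and 1 lower (0.00789%). Here and below a gene is said to be called, to rise or to fall where its Benjamini-Hochberg adjusted p over all genes tested was under 0.05. At an unadjusted p under 0.05 there were 646 higher genes (5.1%) and 479 lower genes (3.78%). Together these are 1125 genes, beside 634 expected at that p if no gene changed. Few calls with 3 arrays a group therefore do not show that few genes changed. When arrays were centred on their medians the count was again 6, of which 4 were higher and 2 lower. Only 4 of the genes were the same: MT1H and APLP2 were lost, and ID2 and DUSP4 were gained. At an unadjusted p under 0.05 there were then 847 genes. With 3 arrays a group, the median width of a gene's 95% interval was 0.416 on either side of its log2 fold change, so changes much smaller than that could not be resolved for a typical gene.

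The windows before the start sites of ID1, ID3 and ID4 are shown because these had the largest changes among the 6 called genes. Each line gives the 250 bases before the RefSeq start site in GRCh38.p14, read 5′ to 3′ on the gene's own strand, at chr20:31605039-31605288 (plus strand) for ID1, chr1:23559502-23559751 (minus strand) for ID3 and chr6:19837120-19837369 (plus strand) for ID4.
ID1: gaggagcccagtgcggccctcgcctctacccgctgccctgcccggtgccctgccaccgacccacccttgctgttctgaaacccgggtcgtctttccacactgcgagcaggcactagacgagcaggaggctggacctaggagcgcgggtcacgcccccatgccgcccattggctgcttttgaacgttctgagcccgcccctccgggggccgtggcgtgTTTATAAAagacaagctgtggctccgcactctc
ID3: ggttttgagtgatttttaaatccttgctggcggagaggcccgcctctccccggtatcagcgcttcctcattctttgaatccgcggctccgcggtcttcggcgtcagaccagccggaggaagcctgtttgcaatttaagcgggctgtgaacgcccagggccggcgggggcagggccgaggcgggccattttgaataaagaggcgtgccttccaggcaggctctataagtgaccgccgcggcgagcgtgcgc
ID4: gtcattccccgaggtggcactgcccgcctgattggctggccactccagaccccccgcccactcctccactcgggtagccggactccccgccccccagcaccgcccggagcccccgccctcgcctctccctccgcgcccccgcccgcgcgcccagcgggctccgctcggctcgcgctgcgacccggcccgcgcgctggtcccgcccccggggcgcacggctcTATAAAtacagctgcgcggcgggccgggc
Capitals mark the letters TATAAA, the core of a TATA box, searched on both strands. They lie from -31 to -26 relative to the start site in ID1, where a match on the other strand from -33 to -28 overlaps them, and from -29 to -24 in ID4, and 10.8% of 34796 RefSeq windows of this length hold them. A pair of short motifs known to bind SMAD proteins, GGCGCC (in 16.4% of the windows) and GTCTAGAC (in 0.178%), was also searched on both strands, and neither is in these 3 windows. The BMP-responsive element described for ID1 lies farther upstream than the window.

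Among the called genes ID4 had the largest change. Its signals were 244, 257 and 248 with DM and 1649, 2227 and 1854 with BMP2+DM. The groups lay far apart, and the DM arrays were nearly equal. The log2 fold change was 2.92 ± 0.16 (standard error), with an adjusted p of 7.96e-09 in limma. The array carries 5 probe sets for ID4, all higher on average with BMP2+DM. The next brightest had a log2 fold change of 3.07 ± 0.23, and the next 2 had 1.37 ± 0.25 and 0.96 ± 0.48, at signals of 163 and 91.7 with DM.

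ID1, a standard readout of BMP signalling, read 3609, 3579 and 3653 with DM and 14697, 20073 and 17054 with BMP2+DM, again with no overlap. That is a log2 fold change of 2.25 ± 0.14 (adjusted p = 5.79e-08 in limma). ID3 read 217, 146 and 99 with DM and 732, 1165 and 799 with BMP2+DM. Every array with both reagents lay above every array with DM alone. The log2 fold change was 2.59 ± 0.35 (adjusted p = 0.00343 in limma), with the widest error of the 3 genes. ID1 and ID4 were called in 18 of 18 alternative analyses. ID3 was called in 17 and not without the intensity trend of the variance (adjusted p = 0.218).

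ID2, the remaining member of the family, missed the threshold. Its signals were 325, 235 and 209 with DM and 719, 755 and 603 with BMP2+DM, so its groups did not overlap. The log2 fold change was 1.45 ± 0.27, with a 95% interval from 0.89 to 2.01 and an adjusted p of 0.0618 in limma. It was called in 6 of 18 alternatives, among them the fit without DM replicate 1 (adjusted p = 0.0484) and the fit with the DM and BMP2+DM arrays alone (adjusted p = 0.0428). BMP2+DM replicate 2 had the highest signal of its group for all 4 ID genes.

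**Figure D1:**
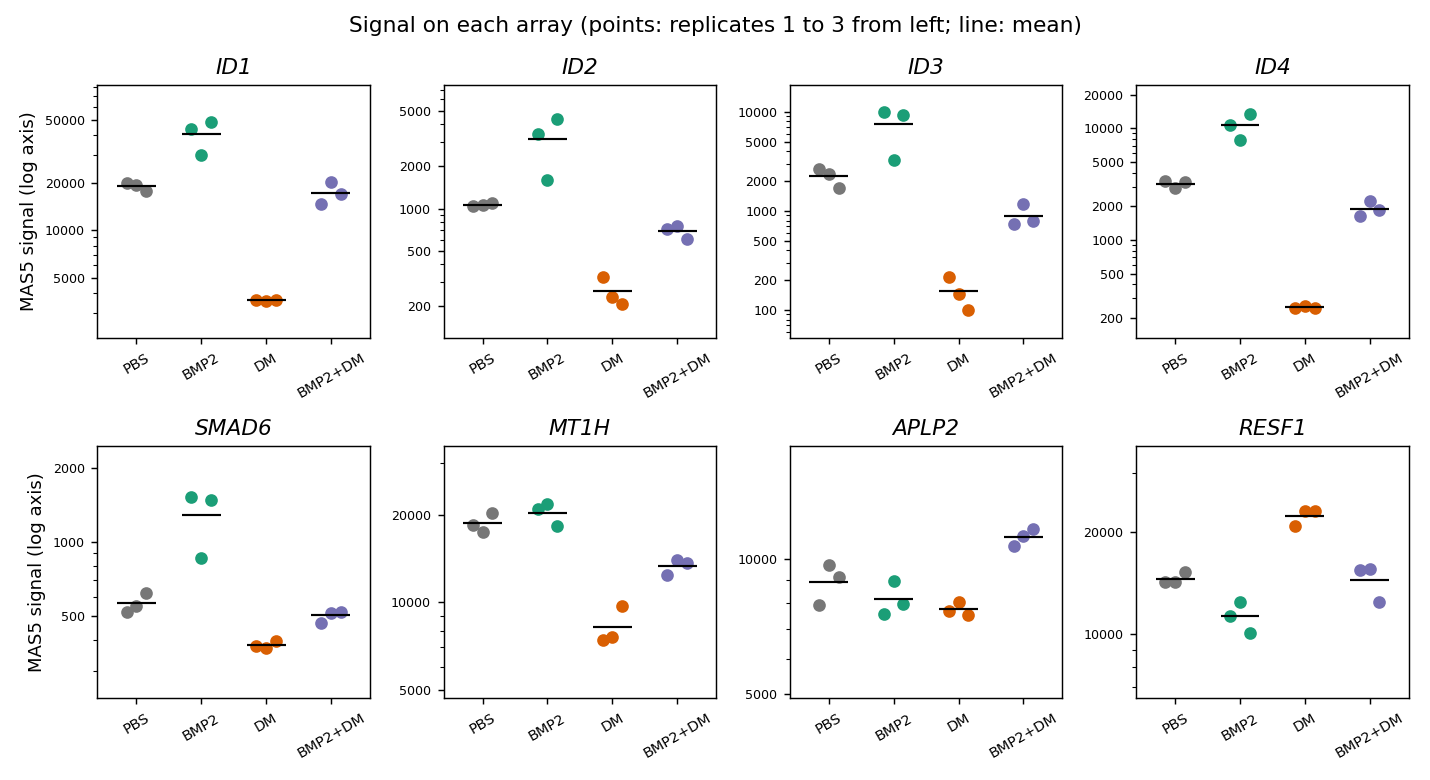
MAS5 signal (log axis) of 8 genes on each of the 12 arrays, by group; points are the 3 replicates of a group and the line is their mean. For ID1, ID2, ID3 and ID4 the DM arrays are the lowest and the BMP2 arrays the highest, and the BMP2+DM arrays lie above all DM arrays; RESF1 runs the other way between DM and BMP2+DM.

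The other groups show from which level these rises started. With DM alone ID4 had a log2 fold change of -3.67, ID3 of -3.91, ID1 of -2.39 and ID2 of -2.08 against PBS, and all 4 fell (3.57% of all genes were called in DM against PBS). With both reagents ID1 lay at -0.15 against PBS on the log2 scale, with a 95% interval from -0.44 to 0.15 and an adjusted p of 0.643. Its signals of 14697 to 20073 overlapped the PBS signals of 20001, 19408 and 17605. ID4 and ID3 remained lower than with PBS, by -0.75 (adjusted p = 0.00916 in limma) and -1.33 (adjusted p = 0.0384), and 4.09% of all genes were called in BMP2+DM against PBS. The 95% interval of ID2 against PBS ran from -1.18 to -0.06, with an adjusted p of 0.208. These comparisons share the DM or the BMP2+DM arrays with the comparison of BMP2+DM and DM, so they are not independent of it.

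BMP2 alone was measured on other arrays, and 80 genes were called in BMP2 against PBS (0.631%). The log2 fold changes of ID4, ID3, ID2 and ID1 there were 1.70 ± 0.16, 1.6 ± 0.35, 1.44 ± 0.27 and 1.06 ± 0.14, all called. The interaction, which is the log2 change with BMP2 under DM minus that without DM, tests whether these changes differ. It was called for 15 genes (0.118%), among them ID4 at 1.22 ± 0.22 (adjusted p = 0.0349) and ID1 at 1.18 ± 0.20 (adjusted p = 0.0318). When all probe sets of ID4 were averaged, those below the filter included, its interaction was 0.398 (adjusted p = 0.886). For ID2 the interaction was 0.02, with a 95% interval from -0.77 to 0.81, and for ID3 it was 0.99, with an interval from -0.04 to 2.02. In signal units the order is the opposite: BMP2 added 13700 ± 1560 (standard error) to ID1 with DM and 21500 ± 5630 without it, and 1660 ± 169 to ID4 with DM and 7420 ± 1570 without it. For ID3 the signal added was 744 ± 139 with DM and 5220 ± 2140 without it, and for ID2 it was 436 ± 57.8 and 2060 ± 809. These differences in signal units were not tested. The interaction of ID1 was called in 12 and that of ID4 in 8 of 23 alternatives. The call of both was lost without any 1 of PBS replicates 1, 2 and 3, DM replicates 1 and 2 and BMP2+DM replicates 2 and 3 (adjusted p from 0.0583 to 0.131), and that of ID4 also without BMP2 replicate 1 (0.0739) or DM replicate 3 (0.0591).

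The inhibitory SMADs, which close a feedback loop on the receptors, were not called under DM. The window before the start site of SMAD6 is given because it holds a GTCTAGAC motif, marked in capitals, from -12 to -5. It lies at chr15:66701986-66702235 on the plus strand of GRCh38.p14, from RefSeq.
SMAD6: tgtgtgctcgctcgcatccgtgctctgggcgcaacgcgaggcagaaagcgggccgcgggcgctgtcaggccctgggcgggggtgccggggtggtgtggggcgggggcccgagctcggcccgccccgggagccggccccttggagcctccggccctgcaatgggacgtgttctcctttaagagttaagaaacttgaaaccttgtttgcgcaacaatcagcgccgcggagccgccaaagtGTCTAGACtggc
SMAD6 read 377, 373 and 398 with DM and 471, 517 and 522 with BMP2+DM. The groups did not overlap, but the log2 fold change of 0.39 ± 0.20 had a 95% interval from -0.03 to 0.82 and was not called (adjusted p = 0.605 in limma). With BMP2 alone SMAD6 rose by 1.14 ± 0.20 (adjusted p = 0.0104). The interaction was -0.75, with a 95% interval from -1.35 to -0.15 and an adjusted p of 0.466.

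SMAD7 read 776, 759 and 1077 with DM and 928, 888 and 957 with BMP2+DM, which overlap. Its log2 fold change was 0.11, with a 95% interval from -0.26 to 0.47. SMAD9, a receptor-activated SMAD that is itself a BMP target, read 226, 374 and 289 with DM and 330, 346 and 411 with BMP2+DM. These also overlap, and the log2 fold change was 0.31 ± 0.21 (adjusted p = 0.724 in limma), beside 1.24 ± 0.21 with BMP2 alone (adjusted p = 0.00656). Its interaction of -0.93 was not called either (adjusted p = 0.35). HEY1, a transcriptional repressor shared by the BMP and Notch pathways, read 1465, 1375 and 1300 with DM and 1958, 1892 and 1877 with BMP2+DM. All arrays with both reagents were higher, by 0.47 ± 0.10 on the log2 scale, yet the adjusted p was 0.142. Its other probe set had mean signals of 880 with DM and 844 with BMP2+DM, at -0.06 ± 0.17 with overlapping arrays, and the mean of both gave 0.206 (adjusted p = 0.745 in limma). HEY1 rose by 0.56 ± 0.10 with BMP2 alone (adjusted p = 0.014).

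Of the 20 BMP-SMAD targets listed, 15 had a signal above the filter. Among these 3 rose (ID1, ID3 and ID4), none fell and 12 were not called, while 13 of 15 had a positive log2 fold change. Of all genes, 0.0395% rose and 0.00789% fell. The median over the 15 was 0.31 beside 0.040 over all genes tested, and 56.8% of all genes were positive. After median centring 11 of the 15 and 44.5% of all genes were positive, with medians of 0.236 and -0.0312. The list holds the ID genes, which had the largest changes, so these values do not describe its other members alone. Those lay between -0.24 (SMURF2) and 0.47 (HEY1). In 6 of the 15 the BMP2+DM arrays all lay above the DM arrays, which held for 9.19% of all genes. The 6 were ID1, ID2, ID3, ID4, SMAD6 and HEY1. In 1 gene the BMP2+DM arrays all lay below, which held for 5.97%. That 1 gene was SMURF2, a ubiquitin ligase that removes pathway components, at -0.24 ± 0.10 (adjusted p = 0.485 in limma). BAMBI, a decoy receptor, had 0.18, SMURF1 0.00, ATOH8 0.08, MSX1 0.01, MSX2 0.01 and HEYL 0.31, the last with a 95% interval from -1.0 to 1.61 at dim signals. With BMP2 alone 7 of these 15 rose and none fell, with a median of 0.71. Of all genes, 0.631% were called there in either direction, and the median was 0.0253.

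**Figure D2:**
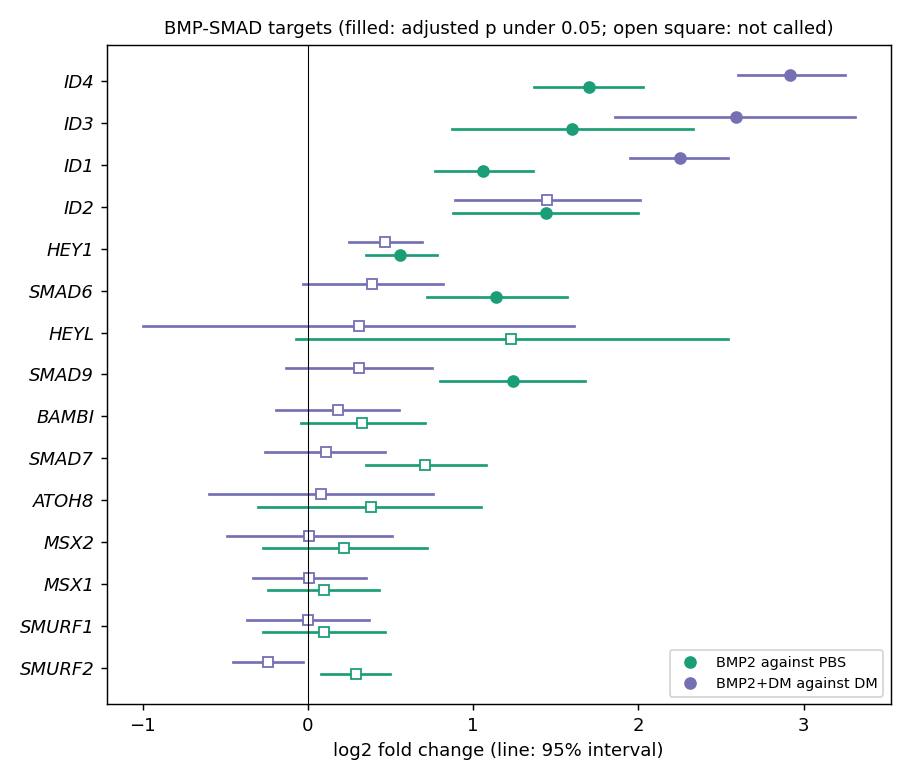
Log2 fold changes of the 15 measured BMP-SMAD targets with their 95% intervals, for BMP2+DM against DM (violet) and BMP2 against PBS (green); filled circles are called genes and open squares are genes that were not called. ID4, ID3 and ID1 stand at 2.92, 2.59 and 2.25 with DM, ID2 at 1.45, and the other 11 lie between -0.24 and 0.47.

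Genes of the pathway upstream of the ID genes were not called. Of 14 measured ligands, receptors and SMADs, 0 were called by limma, and the median was -0.02. At an unadjusted p under 0.05, 0 were higher and 3 lower (5.1% and 3.78% of all genes). The 3 were SMAD5, a receptor-activated SMAD, at -0.29 ± 0.11 (adjusted p = 0.451), ACVR2B, a type II receptor, at -0.69 ± 0.30 (adjusted p = 0.525), and BMPR2, the main type II receptor for BMP ligands, at -0.28 ± 0.12 (adjusted p = 0.526). SMAD5 read 2436, 2290 and 2582 with DM and 2093, 2173 and 1733 with BMP2+DM. The type I receptors ACVR1 and BMPR1B had 0.02 and -0.26, and SMAD4, the common partner, 0.05. Among 5 measured extracellular antagonists none was called and 1 was higher at an unadjusted p under 0.05, FSTL1, a follistatin-like secreted protein, at 0.29 ± 0.11 (adjusted p = 0.451 in limma).

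The 80 genes called with BMP2 alone were then followed under DM. Their fold changes come from the PBS and BMP2 arrays, but the variance used to call them was estimated on all 12 arrays. With the PBS and BMP2 arrays alone 41 genes were called, 40 of them among the 80. Of the 41 that rose with BMP2 alone, 33 had a positive log2 fold change under DM (80.5%, beside 56.8% of all genes). After median centring 30 did (73.2%, beside 44.5%). Of the 41, 3 were called higher under DM, as were 0.0395% of all genes. Their median was 0.74 without DM and 0.22 with it. The genes were chosen for their change without DM, so these medians do not measure how far DM reduced the response. At an unadjusted p under 0.05, 16 were higher and 1 was lower (5.1% and 3.78% of all genes). UCA1, a long noncoding RNA first described in bladder cancer, read 531, 643 and 508 with DM and 989, 921 and 892 with BMP2+DM. It had a log2 fold change of 0.74 ± 0.16 (adjusted p = 0.142 in limma), beside 1.13 ± 0.16 with BMP2 alone. TGFBI, a secreted matrix protein, had 0.26 ± 0.09 under DM and 0.91 ± 0.09 without it, and DKK1, a secreted WNT antagonist, 0.36 ± 0.13 under DM and 0.97 without it. SNAI2, a repressor active in epithelial-mesenchymal transition, had -0.03 and 0.88. CD24, a cell surface glycoprotein, went the other way: it read 3385, 3361 and 3249 with DM and 2564, 2563 and 2833 with BMP2+DM, at -0.33 ± 0.09 (adjusted p = 0.272), while it rose by 0.68 with BMP2 alone.

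The genes that fell with BMP2 alone are the other 39. Of these, 15 had a negative log2 fold change (38.5%, beside 43.2% of all genes), or 22 after median centring (56.4%, beside 55.5%), and 0 were called by limma, with 5 lower and 3 higher at an unadjusted p under 0.05 (3.78% and 5.1% of all genes). In 7 the BMP2+DM arrays all lay below the DM arrays and in 2 all above (5.97% and 9.19% of all genes). The median was -0.87 without DM and 0.05 with it, or -0.0186 with it after median centring. These genes too were chosen for their change without DM, so the medians do not measure how far DM reduced the response. NDRG1, a stress-induced gene, read 5993, 6839 and 7895 with DM and 6932, 6684 and 6859 with BMP2+DM. The groups overlapped, and the log2 fold change was -0.01, with a 95% interval from -0.38 to 0.36, beside -1.42 ± 0.17 with BMP2 alone. STC1, which encodes the secreted glycoprotein stanniocalcin, had -0.22 ± 0.13 under DM and -1.47 ± 0.13 without it. CALB1, a calcium-binding protein, had -0.39 ± 0.10 under DM (adjusted p = 0.214 in limma) and -0.75 without it, and MAL, a membrane raft protein, -0.46 ± 0.13 and -0.97. Across all 12674 genes the Pearson correlation of the 2 sets of log2 fold changes was 0.0203, and across the 80 genes it was 0.281. These correlations are over genes, which are not independent replicates.

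**Figure D3:**
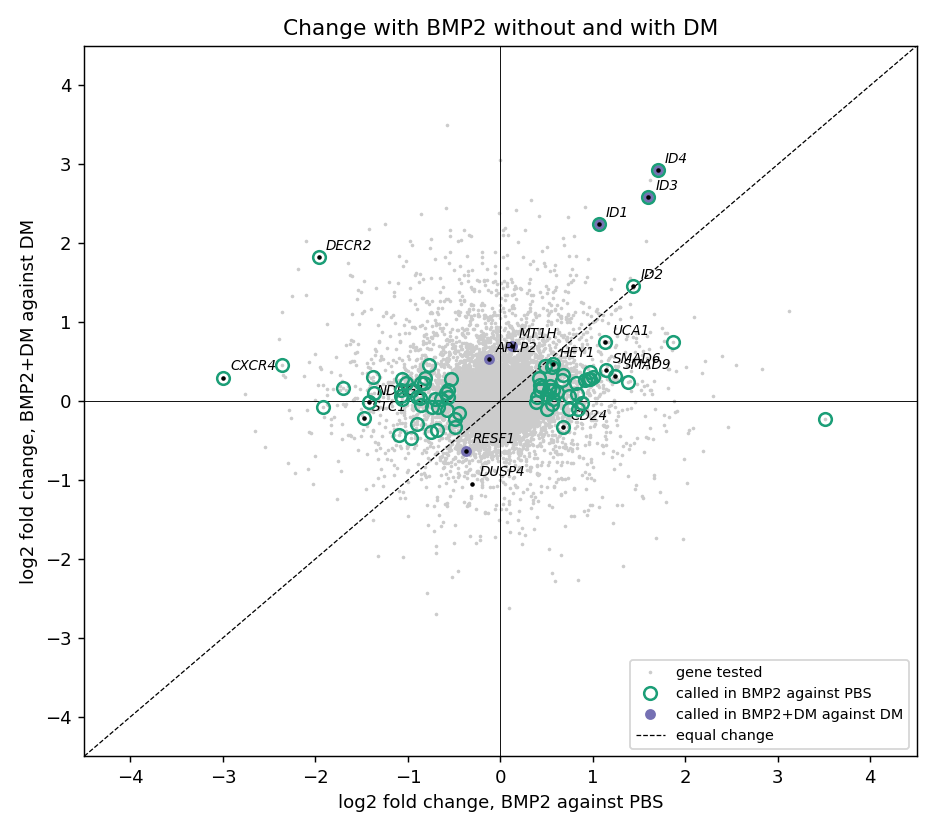
Log2 fold change with BMP2 under DM (vertical) against that without DM (horizontal) for each of the 12674 genes tested (grey points); green rings mark the 80 genes called in BMP2 against PBS and violet points the 6 called in BMP2+DM against DM. ID1, ID3 and ID4 lie above the dashed line of equal change, and most green rings at the left lie near 0 on the vertical axis.

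The interaction was called for 0.118% of all genes. Among the genes called with BMP2 alone it was called for 3 of the 41 that rose and 10 of the 39 that fell. Since those genes were chosen for their change with BMP2 alone, which enters the interaction, the counts describe the genes and do not test them as a set. CXCR4, a chemokine receptor, had the second largest called interaction, 3.30 ± 0.52 (adjusted p = 0.0205 in limma). It read 223, 345 and 231 with DM and 495, 189 and 350 with BMP2+DM, which overlap, after 876, 828 and 2020 with PBS and 126, 130 and 175 with BMP2 alone. DECR2, a peroxisomal reductase of fatty acid breakdown, had the largest, 3.78 ± 0.55 (adjusted p = 0.011). Its signals were 83, 97 and 92 with DM and 366, 350 and 255 with BMP2+DM, higher on all 3 arrays, and 220, 439 and 354 with PBS and 111, 81 and 64 with BMP2. IGFBP3, a secreted binding protein of insulin-like growth factors, had an interaction of 1.23 ± 0.20 (adjusted p = 0.0205), with 0.45 ± 0.14 under DM and -0.78 without it. That call was lost in 7 of 23 alternatives, among them the fits without PBS replicate 1 (0.0735) or 3 (0.0647), without DM replicate 1 (0.0595) and without BMP2+DM replicate 2 (0.076) or 3 (0.0525).

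MT1H was the called gene outside the ID family with the largest rise. Metallothioneins are small cysteine-rich proteins that bind zinc and copper, and their genes carry metal response elements, the binding sites of MTF1, whose core is TGCACNC or TGCGCNC. The MT1H window lies at chr16:56669564-56669813 on the plus strand of GRCh38.p14, from RefSeq, and is shown for these elements, which are in capitals.
MT1H: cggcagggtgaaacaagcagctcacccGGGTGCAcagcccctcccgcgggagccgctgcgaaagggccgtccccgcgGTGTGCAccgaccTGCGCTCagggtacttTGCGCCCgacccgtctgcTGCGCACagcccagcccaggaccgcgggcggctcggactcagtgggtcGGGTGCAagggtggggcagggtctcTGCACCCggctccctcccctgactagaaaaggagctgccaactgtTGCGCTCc
It holds 8 matches on the 2 strands, none of which overlaps another. Of the 34796 windows, 24.8% hold at least 1 match and 0.0172% hold 8 or more, and the windows of MT2A and MT1X hold 7 and 4.

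MT1H read 7399, 7589 and 9731 with DM and 12435, 13946 and 13615 with BMP2+DM, so the groups did not overlap. The log2 fold change was 0.70 ± 0.11 (adjusted p = 0.0114 in limma). With BMP2 alone it was 0.12 ± 0.11 (adjusted p = 0.74), and the interaction of 0.58 ± 0.15 was not called (adjusted p = 0.223). With DM alone MT1H fell by 1.19 on the log2 scale, and with both reagents it lay at -0.49 against PBS (adjusted p = 0.0124). The call was lost without DM replicate 1 (adjusted p = 0.0694), without DM replicate 2 (0.109), without BMP2+DM replicate 2 (0.0969) and without BMP2+DM replicate 3 (0.0782), after median centring (0.0788) and without the intensity trend (0.252). MT1H is measured by 1 probe set, of a type that can pick up near-identical genes, so its signal may include other MT1 transcripts. The probe sets that represent MT1E, MT1F, MT1G, MT1X and MT2A are of the same type, so their signals may be shared too.

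The other metallothioneins were not called. Of 10 measured members of the metallothionein and zinc list, MT1H alone rose, none fell and 9 were not called, with a median of 0.12. Of all genes, 0.0395% rose. MT2A, the most abundant human metallothionein in many cells, read 28333, 29813 and 28098 with DM and 31889, 33716 and 33939 with BMP2+DM. These do not overlap, and the log2 fold change was 0.21 ± 0.08 (adjusted p = 0.451 in limma). MT1X had 0.13 ± 0.09, also without overlap, MT1F 0.29 ± 0.16, MT1G 0.10 ± 0.17 and MT1E 0.00 ± 0.14. With the mean of its probe sets MT1G turned to -0.953 (adjusted p = 0.584 in limma), and without BMP2+DM replicate 2 MT1E turned to -0.0901. MTF1 itself had -0.10 ± 0.21, and SLC30A1, a zinc exporter driven by MTF1, -0.27 ± 0.13.

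APLP2 is a member of the amyloid precursor protein family. It read 7675, 8038 and 7510 with DM and 10701, 11277 and 11685 with BMP2+DM. The groups lay clearly apart, with a log2 fold change of 0.54 ± 0.09 (adjusted p = 0.0387 in limma). BMP2 alone gave -0.12 ± 0.09, DM alone -0.20 ± 0.09 (adjusted p = 0.297), and with both reagents APLP2 was higher than with PBS, by 0.34 (adjusted p = 0.0463). The interaction was 0.66 ± 0.13 (adjusted p = 0.0537). Of 8 probe sets for APLP2, 6 were higher on average, 4 of them without overlap, and the other 2 had -0.03 ± 0.13 and -0.04 ± 0.15. The mean of its probe sets gave 0.25 (adjusted p = 0.548). The call was lost in 9 of 18 alternatives, among them the fits without DM replicate 1, 2 or 3 (adjusted p = 0.117, 0.109 and 0.121) and without BMP2+DM replicate 2 or 3 (0.213 and 0.224).

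RESF1 was the gene that fell. It read 20814, 23071 and 23067 with DM and 15434, 15561 and 12483 with BMP2+DM, with no overlap. The log2 fold change was -0.63 ± 0.10 (adjusted p = 0.0158 in limma). BMP2 alone gave -0.38 ± 0.10 (adjusted p = 0.117), and the interaction was -0.25 ± 0.14 (adjusted p = 0.635). DM alone raised RESF1 by 0.61, and with both reagents it lay at -0.02 against PBS, with a 95% interval from -0.22 to 0.19. Its other probe set was lower as well, at -1.06 ± 0.24 and also without overlap. The call was lost without DM replicate 2 (adjusted p = 0.109), without DM replicate 3 (0.0682), without BMP2+DM replicate 3 (0.125), with the mean of the probe sets (0.152) and without the intensity trend (0.252). Of the 6 called genes, 5 were also called in DM against PBS, each in the opposite direction, and APLP2 was the exception; the comparisons share the DM arrays. In BMP2 against PBS, which shares no array, 3 of the 6 were called (50% of the 6 and 3.75% of the 80).

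When every probe set with 1 gene symbol was tested on its own, 13 of 41091 were called (0.0316%). The 5 higher ones were those of ID1, ID3 and MT1H and the 2 brightest of ID4. The 8 lower ones were 1 of RESF1 and 1 each of 7 other genes whose brightest probe set was not called. APLP2 had an adjusted p of 0.0505 in that fit.

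**Figure D4:**
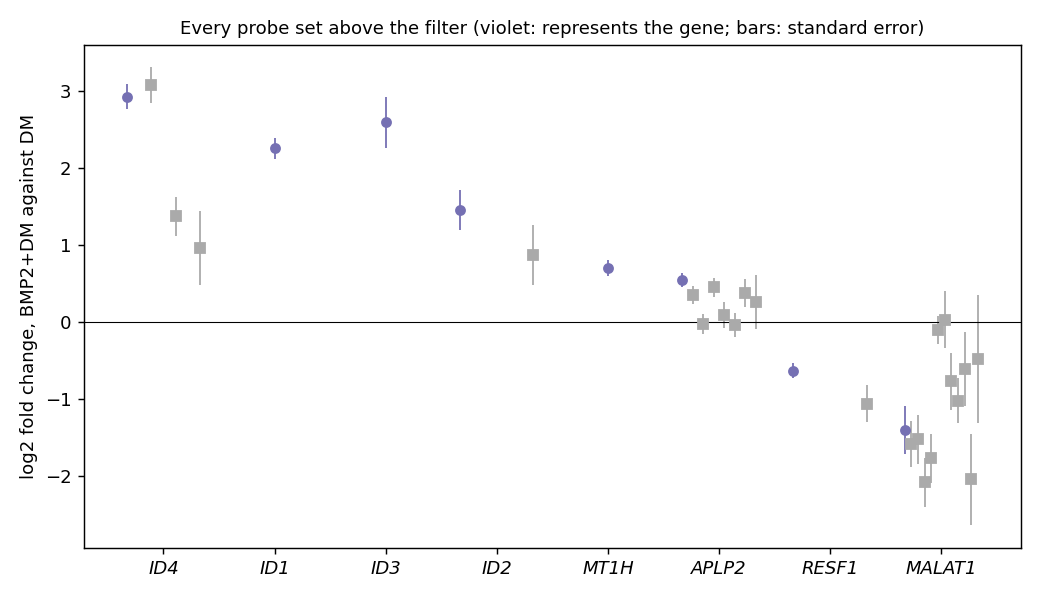
Log2 fold change of BMP2+DM against DM, with its standard error, for each probe set above the filter in 8 genes; violet circles are the probe set that represents the gene and grey squares the others. The 4 probe sets of ID4 and both of RESF1 have one direction, those of APLP2 lie between -0.04 and 0.54, and those of MALAT1 between -2.08 and 0.03.

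A second gene at the edge of the threshold was DUSP4, which encodes a nuclear phosphatase that switches off ERK. Its signals were 2394, 2219 and 3099 with DM and 1467, 1255 and 1016 with BMP2+DM, lower on all 3 arrays, and it had been raised by 2.46 on the log2 scale by DM alone. The log2 fold change was -1.05 ± 0.19, with a 95% interval from -1.44 to -0.65 and an adjusted p of 0.0618 in limma. It was called in 7 of 18 alternatives, one of which was the fit without BMP2+DM replicate 1 (adjusted p = 0.0292). Among the 20 measured MAPK immediate early and feedback genes, DUSP4 was the single one lower at an unadjusted p under 0.05, while 6 were higher and 16 were positive, and 0 were called by limma. The median was 0.18. Of all genes, 5.1% were higher at that p and 56.8% positive, and after median centring 14 of the 20 and 44.5% of all genes were positive, with a list median of 0.112. SPRY1, an inhibitor of receptor tyrosine kinase signalling, had 0.65 ± 0.21 (adjusted p = 0.348), DUSP1, a phosphatase of MAP kinases, 0.32 ± 0.11 (adjusted p = 0.386), JUNB 0.41 and EGR1 0.38, and the last 2 are immediate early transcription factors. With BMP2 alone the same list had a median of -0.08 and 7 positive genes, where 54.1% of all genes were positive.

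Targets of the related TGF-beta branch and of Notch were not called. Of 14 measured TGF-beta targets, 0 were called by limma, with a median of 0.19. At an unadjusted p under 0.05, 5 were higher, as were 5.1% of all genes. PMEPA1, which restrains TGF-beta signalling by feedback, read 3729, 3909 and 4144 with DM and 5125, 4858 and 5919 with BMP2+DM. It had 0.43 ± 0.12 without overlap (adjusted p = 0.272), and BHLHE40, a transcriptional repressor, had 0.32 ± 0.11 (adjusted p = 0.365). Of 12 Notch receptors, ligands and repressors, none was called and 1 was higher at an unadjusted p under 0.05, HEY1. JAG2, a Notch ligand, had 0.43 ± 0.21, HES1, a Notch target, 0.37 and NOTCH2 -0.23 ± 0.14.

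The remaining lists gave no called gene under DM. The hypoxia and glycolysis list had 26 measured members and a median of 0.13, or 0.0597 after median centring. At an unadjusted p under 0.05, 4 of them were higher and 0 lower (5.1% and 3.78% of all genes). PFKFB3, which makes the activator of phosphofructokinase, had 0.39 ± 0.15 (adjusted p = 0.445 in limma), and TPI1, a glycolytic isomerase, 0.27 ± 0.11. With BMP2 alone the same list had 5 called lower, 0 called higher and a median of -0.42. Of all genes, 0.631% were called there in either direction. Cholesterol synthesis had a median of 0.08 over 16 genes, or 0.00839 after median centring, with 1 higher at an unadjusted p under 0.05, MVD at 0.98 ± 0.46 on dim signals. All 16 had been positive with BMP2 alone, as were 54.1% of all genes, and 2 of them were called. Here 10 were positive, beside 56.8% of all genes, or 9 after median centring, beside 44.5%.

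The listed cell cycle genes were not called either. Of 21 mitotic genes, 3 were higher and 1 lower at an unadjusted p under 0.05 (5.1% and 3.78% of all genes). The median was 0.09. KIF20A, a mitotic kinesin, had 0.35 ± 0.12, PLK1, a mitotic kinase, 0.52 ± 0.21 and TOP2A, a topoisomerase, -0.46 ± 0.15. With the mean of its probe sets TOP2A was called, at -1.36 (adjusted p = 0.0354 in limma). Of 21 genes of DNA replication and G1/S, 1 was higher and 1 lower, with a median of -0.02. MCM2, a subunit of the replicative helicase, read 3346, 3404 and 3379 with DM and 3778, 4398 and 4415 with BMP2+DM, at 0.31 ± 0.10 (adjusted p = 0.365 in limma). E2F1, a transcription factor of S phase entry, had -1.31 ± 0.47, and 1 of its BMP2+DM signals, 128, 93 and 570, stood apart. Without BMP2+DM replicate 3 it was called, at -2.11 (adjusted p = 0.0159).

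Genes of cell identity and of inflammation were also below the threshold. Of 13 epithelial genes, 0 were called by limma and 2 were lower at an unadjusted p under 0.05 (CD24 and OCLN, a tight junction protein, at -0.28 ± 0.11), with a median of -0.11. Of 11 mesenchymal genes, 3 were lower and the median was -0.03. Of all genes, 3.78% were lower and 5.1% higher at that p. VIM, an intermediate filament gene, read 74943, 74778 and 71530 with DM and 59393, 62621 and 63445 with BMP2+DM, at -0.25 ± 0.11. TCF4, a basic helix-loop-helix factor, had -0.52 ± 0.17 and did not overlap either. Among 16 extracellular matrix and protease genes 1 was higher and 2 were lower, with FN1, fibronectin, at -0.43 ± 0.15 and a median of 0.08. Of 16 NF-kB targets and cytokines 2 were higher, with a median of 0.03, or -0.0445 after median centring. CXCL2, a neutrophil chemokine, read 7214, 7800 and 7017 with DM and 8606, 10235 and 10743 with BMP2+DM, at 0.42 ± 0.09 (adjusted p = 0.142), and it was called without BMP2+DM replicate 1 (adjusted p = 0.0292).

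Stress lists gave the same picture. Of 13 heat shock and chaperone genes 0 were called by limma. At an unadjusted p under 0.05, 1 was higher and 1 lower (5.1% and 3.78% of all genes). CALR, a chaperone of the endoplasmic reticulum, read 4152, 3474 and 4975 with DM and 5483, 6145 and 6113 with BMP2+DM, at 0.51 ± 0.11 (adjusted p = 0.142), and HSP90B1, another, had -0.45 ± 0.12 (adjusted p = 0.226). CALR was called without DM replicate 3 (adjusted p = 0.0243). In the amino acid response driven by ATF4, 0 of 24 genes were called and 0 reached an unadjusted p under 0.05, with a median of 0.02, or -0.0533 after median centring. Medians were 0.06 for 13 NRF2 antioxidant genes and for 14 interferon response genes, 0.01 for 13 p53 targets and 0.15 for 6 WNT targets, and after median centring the first 3 were -0.0135, -0.0148 and -0.0638. In these 4 lists 0 genes were called, and 2 were higher and 2 lower at an unadjusted p under 0.05.

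**Figure D5:**
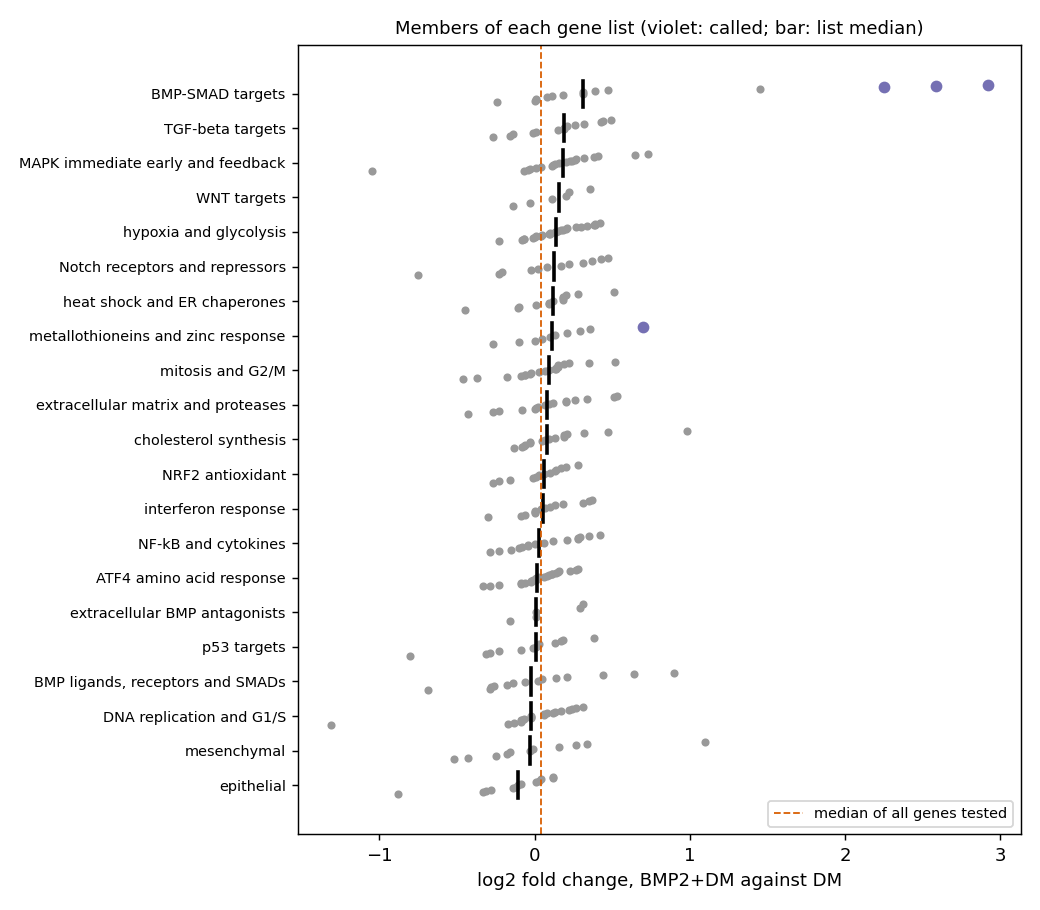
Log2 fold change of BMP2+DM against DM for every measured member of 21 gene lists; violet points are called genes, the black bar is the list's median and the dashed line the median of all genes tested (0.040). The called members are ID1, ID3 and ID4 among the BMP-SMAD targets and MT1H among the metallothioneins.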

How the data were processed

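RNA from 12 SK-OV-3 cultures was hybridised to 1 Affymetrix array each. The authors used MAS5, per the submitters' processing notes (version not stated), and their deposited table holds 1 linear intensity per probe set and array. Trimmed means of 495.8 to 496.1 show that arrays had been scaled to one level, so no further normalization was applied. GEO's probe annotation gave 1 gene symbol for 41091 probe sets, several for 1801 and no entry for 11721. Signals under a floor of 1 (396 values) were raised to it and log2 taken. Each of 19775 genes was represented by the probe set brightest on average, and 12674 genes lay above the median of all probe sets (69.8) and were tested.

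A single model in limma 3.58.1 (R 4.3.3), with a mean for each of the 4 groups, was fitted to the 12 arrays and its variance given an intensity trend (8 residual and 9.24 prior degrees of freedom). Tests were two-sided. An exact permutation test of 3 arrays against 3 cannot give a p under 0.1, so limma alone was used. The code was tested on simulated data. Array number limits the precision. Promoter windows are RefSeq's (GRCh38.p14), present for 10227 of the genes tested. Control probe sets, detection calls and protein sequences were not analysed here.

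The members, the gene lists and tests were chosen with earlier results of these data known. Named genes were the called genes whose arrays do not overlap (up to 12 each way), ID1, ID3, ID4 and MT1H, all measured BMP-SMAD targets and metallothioneins, from every other list up to 3 with the smallest p, and up to 5 interaction genes each way. UCA1, DKK1, SNAI2, CALB1, MAL, JUNB, EGR1, HES1, SMAD4, ACVR1, BMPR1B, ERBB2 and the genes of the closing observations were named after their values were seen.

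The alternatives changed the scaling (median centring or quantiles), the offset (32 added before log2), the filter (none, or the brightest 30%), the summary of a gene (all its probe sets averaged, or each tested), the variance model (without trend, robust, array weights), the arrays (each left out, or the compared groups alone) and the design (a replicate block).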

Additional observations from a re-analysis of the deposited data

Results flagged for a closer look

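The change with BMP2 differed with and without DM, by limma's interaction test over all genes, for 9 genes named by the rule. The difference was 3.78 on the log2 scale for DECR2, 3.30 for CXCR4, 1.41 for NDRG1, 1.25 for STC1, 1.23 for IGFBP3, 1.22 for ID4 and 1.18 for ID1. It was -1.01 for CD24 and -0.55 for SF3B1, a core splicing factor. SF3B1 read 14918, 13708 and 14582 with DM and 11985, 12513 and 12131 with BMP2+DM, and its adjusted p of 0.0486 held in 6 of 23 alternatives. DECR2 was called in 21 of 22 alternatives, STC1 in 20 of 23, CXCR4 and CD24 in 19 of 23, IGFBP3 in 16, NDRG1 and ID1 in 12 and ID4 in 8. The call of NDRG1 was lost without PBS replicate 1 or 3, DM replicate 1 or 2, or any 1 of the 3 BMP2+DM arrays (adjusted p from 0.0767 to 0.124). Those of DECR2, CXCR4, STC1 and CD24 were lost without PBS replicate 3 (0.0562 to 0.0647), and that of CXCR4 also without DM replicate 1 (0.0589) or BMP2+DM replicate 3 (0.0525).

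Among probe sets to which the annotation used here gives no gene, 1 was lower with BMP2+DM in the fit of every probe set, at -1.24 ± 0.16 (adjusted p = 0.00274 in limma). Its mean signal was 2860 with DM and 1240 with BMP2+DM, beside 2550 with PBS and 2120 with BMP2 alone. It was the 1 called probe set of the 11721 not listed.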

How the results depend on the processing

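In 2203 refits of 123 named genes in BMP2+DM against DM, 0 called values changed sign, 21 calls were lost and 30 gained. In 298 refits of 13 genes in the interaction the counts were 0, 73 and 6. A call could be lost only by a gene called at first, which in BMP2+DM against DM means 6 genes with 18 refits each. Most of the 2203 refits are of genes that were not called, so the losses are not a share of that number. The 6 genes called in BMP2+DM against DM became 13 of 41091 (0.0316%) with every probe set, of which 5 were higher and 8 lower, 2 without the intensity trend, 14 with array weights, and 3 to 21 when 1 array was left out (3 without DM replicate 2, and 21, of which 14 were lower, without BMP2+DM replicate 1). The 15 of the interaction became 2 after median centring, 26 with the brightest 30% of probe sets, 4 with averaged probe sets, 8 with every probe set, 1 without the trend, 31 with array weights, and 0 to 42 when 1 array was left out (0 by limma, with 931 at an unadjusted p under 0.05, without PBS replicate 3; 42 without BMP2 replicate 2). The 80 of BMP2 against PBS became 50 after median centring (17 higher), 35 with the mean of probe sets (13 higher), 12 without the trend, 41 with only the groups compared, and 36 to 101 when 1 array was left out (36 without PBS replicate 3, 101 without BMP2 replicate 2). The cause of these shifts was not tested. The number of features tested also differed in some settings. The median of the BMP-SMAD targets, 0.307, became 0.475 with the mean of probe sets and 0.214 with array weights, and ran from 0.151 (without BMP2+DM replicate 3) to 0.377 when 1 array was left out. That of the metallothioneins ran from 0.0785 to 0.181. Replicate numbers did not pair the arrays: same-numbered DM and BMP2+DM arrays deviated from their group means with correlations of 0.02, 0.02 and 0.00, and PBS and BMP2 arrays with -0.01, 0.01 and 0.00. With the replicate block 6 genes were called, the same 6, 61 in BMP2 against PBS and 8 for the interaction, where ID1 and ID4 had adjusted p of 0.0533 and 0.0586. Of the lists with no called member, medians changed sign in 6 of 18 settings for the G1/S genes and p53 targets, 4 for the BMP ligands, receptors and SMADs and for NF-kB, 3 for the antagonists and ATF4, 2 for Notch and 1 for the mitotic, mesenchymal, NRF2, interferon and WNT lists. Low signal over background limits dim genes such as HEYL and MT3, whose standard errors were 0.62 and 0.81.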

Other observations

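When every probe set with 1 gene symbol was tested, 8 were lower and called, 7 of them in genes whose brightest probe set was not called (CDC27, EGFR, MALAT1, NIPSNAP1, OSBPL8, SCAF11 and THRAP3), so the gene-level result depends on which probe set stands for the gene. MALAT1, a nuclear long noncoding RNA, had 12 probe sets, 7 of them lower without overlap and 1 with a positive mean change. Its brightest probe set read 19135, 21504 and 17836 with DM and 15418, 4992 and 5156 with BMP2+DM, at -1.40 ± 0.32 (adjusted p = 0.147 in limma), and BMP2+DM replicate 1 stood nearer to the DM arrays than the other 2 did. Without that array it was called, at -1.94 (adjusted p = 0.000458). EGFR, the epidermal growth factor receptor gene, had 1 probe set at -1.32 ± 0.19 (adjusted p = 0.00669), while its brightest had -0.39 ± 0.16. OSBPL8, which encodes a lipid transfer protein, had probe sets at -0.24 ± 0.11, -0.43 ± 0.12 and -1.92 ± 0.32, and SCAF11, a splicing-related gene, had 4 probe sets that were lower without overlap.

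Several genes that were not called had arrays that did not overlap. This held for 9.19% of all genes with BMP2+DM higher and for 5.97% with it lower. The genes given here were named after their values were seen. LATS2, a kinase of the Hippo pathway, read 1364, 1392 and 1480 with DM and 999, 879 and 823 with BMP2+DM, at -0.65 ± 0.13 (adjusted p = 0.0989 in limma), but with the mean of its probe sets it turned to 0.252 (adjusted p = 0.921). WWTR1, which encodes the Hippo effector TAZ, read 8802, 9680 and 10504 with DM and 7184, 6421 and 6788 with BMP2+DM, at -0.51 ± 0.10 (adjusted p = 0.0989). EIF5B, a translation initiation factor, had -0.54 ± 0.11 (adjusted p = 0.095), or -0.226 with its probe sets averaged, and NUCKS1, a chromatin-associated protein, had -0.67 ± 0.13 (adjusted p = 0.0812), with NUCKS1 called at -0.84 without BMP2+DM replicate 1. KLHL36, a substrate adaptor of a ubiquitin ligase, had 0.86 ± 0.19 (adjusted p = 0.142), and its BMP2+DM signals of 1637, 2821 and 3584 were spread widely above the DM signals of 1407, 1408 and 1390. It was called at 1.18 without BMP2+DM replicate 1, and with the mean of its probe sets it had 0.091 (adjusted p = 0.961).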
